A study of Mus musculus with 15 samples.

Results

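The promoters of 9 genes of the AP-1 transcription factor family were examined in a mouse nucleosome-mapping data set of 25881 annotated promoters. The members were every promoter of the table whose RefSeq transcript belonged to Fos, Fosb, Fosl1, Fosl2, Jun, Junb, Jund, Atf3 or Batf, and each gene had 1 promoter. Nucleosome positions were measured by ChIP-MNase, in which large pieces of cross-linked chromatin are immunoprecipitated and then digested with micrococcal nuclease, so that the DNA wrapped in nucleosomes is left for sequencing. The values were nucleosome occupancies in 200 bins of 10 bp, from 1000 bp before to 1000 bp after the annotated transcription start site (TSS), and are given here relative to each library's mean over well-covered promoters, which is 1.

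The 15 libraries came from 2 cell types. Dendritic cells (DCs) had been differentiated in vitro from progenitor lines of mouse bone marrow, and were taken resting or 1 h after 100 ng/ml of lipopolysaccharide (LPS), a bacterial product that activates these cells. 3T3 cells, a mouse fibroblast line, were taken resting or 1 h after 5 ng/ml of tumour necrosis factor alpha (TNF). For each of these 4 states the H3K4me1 antibody, which recovers active, inducible and many silent promoters, gave 1 deposited set that pooled 2 replicates. A further 8 H3K4me1 libraries came from control 3T3 cells and from BAF knockdown 3T3 cells, each resting or after TNF, with 2 libraries per group. By the deposited names, the first library of each knockdown group was digested with less micrococcal nuclease (MNase) than the rest of these libraries. In the knockdown cells a retroviral vector expressed 1 short hairpin RNA against a sequence shared by Brg1 and Brm, the catalytic subunits of the BAF chromatin remodelling complex, and cells were sorted for the GFP of the vector; no RNA was measured in these files, so the knockdown was not checked here. The other 3 libraries were of TNF-treated 3T3 cells without the hairpin and used antibodies to RNA polymerase II (pol-II) phosphorylated at serine 7 (S7P, 2 libraries), found on elongating polymerase, or at serine 5 (S5P, 1 library), found on initiating polymerase.

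AP-1 is a dimer of basic leucine zipper proteins. Jun proteins pair with one another or with Fos proteins, whereas Fos proteins need a Jun partner; the dimers bind the TPA response element, a short palindrome that gives phorbol-ester and cytokine responsiveness to many genes. Several of the genes, Fos, Fosb, Jun, Junb and Atf3 among them, are immediate early genes: their transcription starts within minutes of a stimulus without new protein synthesis. ATF3 and BATF belong to the same wider zipper family and also dimerise with Jun proteins, BATF mainly in blood cells.

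The pattern read in these data is the one seen on average at active promoters: a nucleosome-depleted region (NDR) just before the TSS and a well-placed first nucleosome, called +1, after it. Averaged over active promoters, occupancy was lowest between -65 and -45 bp in the pooled H3K4me1 sets and on S5P chromatin, at 0.357 to 0.521, and peaked between 125 and 145 bp after the TSS. Positions are counted from the annotated start base of the deposited promoter, which is 0. The nearest start in the GENCODE annotation lay at -11 bp for Fos, 5 for Fosl1, 30 for Junb, -7 for Atf3 and -51 for Batf. For the other members it lay at 0. The RefSeq start of Fos was also at -11 bp.

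Stretches of 250 bases before 4 of the TSSs show what lay under these patterns (mouse build mm9, read from the reference genome, 5′ to 3′ on the gene's strand). They were chosen because Jun had the emptiest region, Fosb an upstream nucleosome at a like place in all 4 pooled sets, Fos a TATA box without signal in those sets, and Jund no low ratio in any library. Capitals mark matches on either strand to 8 searched motifs. Jun lies at chr4:94718914-94719163 on the minus strand, Fosb at chr7:19895395-19895644 on the minus strand, Fos at chr12:86814601-86814850 on the plus strand and Jund at chr8:73221388-73221637 on the plus strand.

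Jun: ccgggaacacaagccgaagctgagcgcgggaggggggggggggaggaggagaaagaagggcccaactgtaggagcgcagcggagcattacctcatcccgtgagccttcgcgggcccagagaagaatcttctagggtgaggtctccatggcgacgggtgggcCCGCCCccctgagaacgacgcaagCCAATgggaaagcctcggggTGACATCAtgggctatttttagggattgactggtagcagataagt

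Fosb: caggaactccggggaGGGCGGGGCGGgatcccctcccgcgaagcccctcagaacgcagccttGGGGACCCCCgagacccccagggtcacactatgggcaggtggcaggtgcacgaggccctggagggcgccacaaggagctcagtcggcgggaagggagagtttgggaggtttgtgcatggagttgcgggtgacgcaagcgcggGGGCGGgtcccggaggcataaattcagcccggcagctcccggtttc

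Fos: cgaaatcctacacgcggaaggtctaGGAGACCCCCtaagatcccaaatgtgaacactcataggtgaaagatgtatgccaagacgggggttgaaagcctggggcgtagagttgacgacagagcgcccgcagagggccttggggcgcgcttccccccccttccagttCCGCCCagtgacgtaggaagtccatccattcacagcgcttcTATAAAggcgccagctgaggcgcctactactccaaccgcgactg

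Jund: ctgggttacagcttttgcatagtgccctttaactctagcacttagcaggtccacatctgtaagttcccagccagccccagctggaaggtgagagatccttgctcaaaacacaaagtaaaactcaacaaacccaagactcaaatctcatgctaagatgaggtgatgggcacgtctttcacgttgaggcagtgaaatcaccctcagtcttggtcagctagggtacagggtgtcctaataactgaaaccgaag

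The Jun capitals are, in order, a Sp1 site (-89 to -84), a CCAAT box (-65 to -61) and the TPA-like element TGACATCA (-45 to -38), through which Jun is known to regulate its own gene. TGACATCA was found in 2.56% of 25735 promoters searched from -250 to 50 bp and in 1 of the 9 members. In Fosb the capitals are 2 overlapping Sp1 matches near -230, an NF-kB site (-188 to -179) and a Sp1 site (-46 to -41). In Fos they are an NF-kB site (-225 to -216), a Sp1 site (-85 to -80) and the TATA box TATAAA (-44 to -39). The stretch before Jund held none of the motifs.

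Over all 9 members the Sp1 motif GGGCGG was found in 7 (45.2% of all promoters), CCAAT in 3 (37.8%), the NF-kB site in 3 (9.04%) and TATAAA in 2 (12.7%). No member held TGACGTCA, TGACTCA or a CArG box in this window, which were found in 2.38%, 4.66% and 1.46% of all promoters. Each match is a description of the letters and not of a bound site. CpG-island composition over 200 bp either side of the TSS (GC above 50% and a CpG ratio above 0.6) held for 7 of 9 members, or 77.8%, against 48.3% of all promoters. The exceptions were Jund, with a CpG ratio of 0.321, and Batf, with 0.346.

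Fragment coverage set how much could be read at each gene. The deposited coverage score of the members ran from 23.75 at Jun through 37.25 at Fosl2, 50.75 at Atf3, 72.75 at Fos, 83.75 at Fosb, 88 at Batf, 153.75 at Junb and 249 at Jund to 340.5 at Fosl1. Their median was 83.75 against 106 over all promoters. Only Fosl1, Jund and Junb exceeded the study's coverage minimum of 100, which 13559 promoters (52.4%) passed. The levels of the 6 others therefore rest on few fragments, and the deposited occupancies do not give counts from which an interval could be made.

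Before stimulation the deposited expression values placed most members among transcribed genes in DCs. Junb was at the 99.1 percentile of all promoters, Atf3 at 99, Fosl2 at 97.7, Jun at 96.2 and Jund at 93.3. Fosl1, at the 54 percentile, was just above the cut for an active gene, which was 0.02 of the mean of all genes, and Fosb, at 45.3, was below it. In fibroblasts Fosl2 stood at 95.9 and Jun at 90.1, and 6 of the 9 were active there, against 8 of 9 in DCs. Fosb, Atf3 and Batf were below the cut in fibroblasts.

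**Figure D1:**
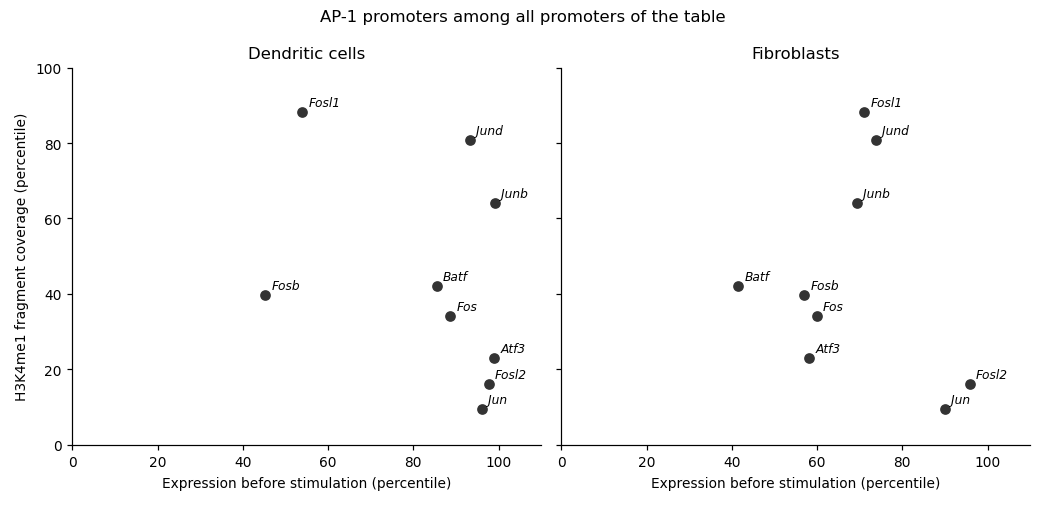
Percentile of H3K4me1 fragment coverage (vertical axis) against percentile of expression before stimulation (horizontal axis) for the 9 members among all promoters, in DCs (left) and fibroblasts (right). Jun and Fosl2 are highly expressed but sit at the 9.37 and 16.2 percentile of coverage, whereas Fosl1 and Jund sit at 88.3 and 80.8.

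The depth of the NDR was measured as the log2 ratio of mean occupancy from -150 to 0 bp to that from -1000 to -500 bp, after adding 0.1 to both. A promoter without depletion is near 0, and an empty window gives a value near or below -3. Median ratios by library were between -1.60 and -0.52 for active promoters and between -0.17 and 0.00 for silent ones. A ratio in bulk cells cannot tell partial occupancy in every cell from full occupancy in some of them.

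Among the Jun genes the 3 members were unlike one another. Jun, the main partner of Fos, had the emptiest promoter of the family. Its NDR log2 ratio was -3.56 in resting DCs, -3.35 in LPS-treated DCs, -3.32 in resting fibroblasts and -3.20 in TNF-treated fibroblasts. The window held no signal in any of these sets. The control libraries gave -3.36 and -3.90 when resting and -3.72 and -0.06 after TNF. The knockdown libraries gave -3.70 and 0.81 when resting and -4.06 and -3.75 after TNF. The S5P library was at -3.59 and the S7P libraries at -0.99 and -1.91. Signal was thus lacking in 11 of 15 libraries. The high values came from 1 TNF-treated control library, 1 resting knockdown library and both S7P libraries, and the control and knockdown groups overlapped.

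A window empty in at least 11 libraries was found at 1192 of the 25881 promoters, or 4.61%, and the median promoter was empty in 2. The low coverage of Jun moves with this value, and its part in the result was not tested. The gap around the Jun TSS, the longest stretch under 0.25 of the library mean, was as follows. It ran from -310 to 90 bp in resting DCs, from -350 to 60 bp after LPS, from -220 to 110 bp in resting fibroblasts and from -500 to 190 bp after TNF, where -500 bp was the limit of the search. On S5P chromatin it ran from -290 to 90 bp. On S7P chromatin the longest such stretches were 90 and 170 bp and lay upstream, from -260 to -170 and from -240 to -70 bp.

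The Sp1, CCAAT and TPA-like letters of Jun shown above all fell inside this gap. Occupancy over the TPA-like element was 0 in the 4 pooled sets and in the S5P library, 0.285 and 0.511 in the S7P libraries, and 0 in 7 of the 8 single H3K4me1 libraries. After the gap a +1 nucleosome stood at 145 bp in resting DCs (7.61 times the library mean), at 135 bp after LPS (2.58) and at 155 bp in resting fibroblasts (7.91). Its place on S5P chromatin was 185 bp, and 165 bp in both S7P libraries. In TNF-treated fibroblasts the first peak was instead at 305 bp. The patterning level, which scores how closely a promoter follows the mean profile of active promoters of its cell type, was 30.7 for Jun in resting DCs and 29.8 in resting fibroblasts, at the 100 and 99.9 percentile of all promoters above the minimum. It was 16.1 after LPS and 3.10 after TNF, the latter at the 46.5 percentile. In the 8 single H3K4me1 libraries it ran from -11.5 to 16.9, at the 3.5 to 93.1 percentile, so the high pooled levels were not reproduced there. Jun itself lay below the minimum of the promoters it is ranked against.

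Junb, an inducible Jun protein that often opposes Jun, was depleted less evenly. Its ratio was -1.33 in resting DCs, -1.80 after LPS, -1.73 in resting fibroblasts and -2.95 after TNF. The control libraries gave 0.23 and -3.59 when resting and -2.85 and 0.11 after TNF, so the 2 replicates of each group lay on opposite sides of 0. The knockdown libraries gave -0.54 and -0.18 when resting and -2.90 and -3.41 after TNF. S5P was at -1.83 and S7P at -0.58 and -0.01. Its gap was centred on and after the annotated TSS rather than before it, from -110 to 110 bp in resting fibroblasts and from -100 to 110 bp on S5P chromatin. The TATAAA of Junb lay at 0 to 5 bp. GENCODE puts the only Junb start in the measured window at 30 bp, whereas the RefSeq promoter table starts at the deposited base. Whether transcription of Junb in these cells starts at the annotated base was not tested. With the window moved to -100 to 50 bp, against the whole 2 kb, the mean of the pooled sets went from -1.95 to -2.78 and that of the 8 single H3K4me1 libraries from -1.64 to -1.63.

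Jund, the most constantly expressed Jun protein, showed no clear depletion in the window before its annotated TSS in any library. Its ratio was -0.12, 0.30, 0.19 and 0.75 in resting DCs, LPS-treated DCs, resting fibroblasts and TNF-treated fibroblasts. Over the 15 libraries it ran from -0.12 to 0.75, with a median of 0.30, and only 2 values were below 0. The SD over libraries was 0.26, against a median SD of 1.21 for promoters above the coverage minimum. Only 0.465% of those promoters had a smaller SD. With the window at -100 to 50 bp, against the whole 2 kb, the ratio of Jund ran from -0.67 to 0.61, with a median of 0.08 and 7 of 15 values below 0.

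Jund was among the best-covered members, with a coverage of 249 and signal in 73.5% to 99.5% of its bins. Of the 13559 promoters above the minimum, 50 (0.369%) had no lower value than the -0.12 of Jund in any library by the window of -150 to 0 bp. Of the 5490 active in both cell types, as Jund was, 5 (0.0911%) did so. Those counts include Jund itself. In the pooled sets the longest stretch under 0.25 of the mean within 500 bp of its TSS was 30 bp, and it was 20 bp on S5P chromatin. The S7P libraries had longer ones far upstream, from -480 to -330 and from -500 to -400 bp.

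The base composition of the Jund window was also unlike that of the other Jun genes. GC content was 47% from -500 to 0 bp and 46.2% from 0 to 500 bp, with CpG ratios of 0.146 and 0.337. It rose to 73.4%, with a CpG ratio of 1, from 1000 to 1500 bp after the annotated TSS, outside the measured window. The annotation places the coding start 1319 bp after the TSS, within a first exon of 2878 bp, and the RefSeq promoter table starts at the same base as the deposited one. Nucleosomes beyond 1000 bp were not analysed here. Whether transcription of Jund in these cells starts at the annotated base was not tested.

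**Figure D2:**
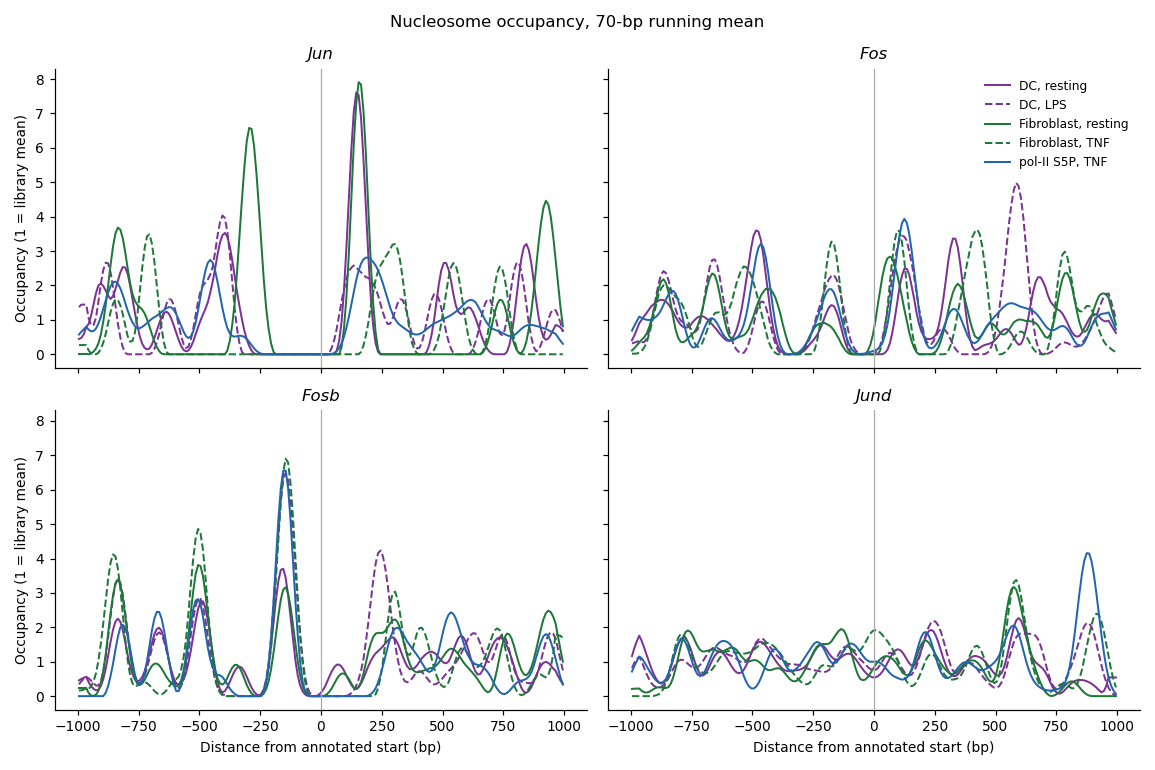
Nucleosome occupancy (70-bp running mean, vertical axis, 1 is the library mean) against distance from the annotated start in bp (horizontal axis) for Jun, Fos, Fosb and Jund in the 4 pooled H3K4me1 sets and the S5P library, 1 line per library. Jun is near 0 on both sides of the start, Fosb has a peak at -145 to -155 bp, and Jund has no gap before the start.

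Among the Fos genes, Fos itself had a ratio below 0 in 14 of 15 libraries, some of them close to 0, and in 12 with the window at -100 to 50 bp. Its ratio was -2.35 in resting DCs, -1.14 after LPS, -2.89 in resting fibroblasts and -1.84 after TNF. The 8 single H3K4me1 libraries ran from -3.61 to 0.29 with a median of -0.69, and the highest value was a TNF-treated knockdown library. S5P was at -1.52 and S7P at -0.54 and -0.26. Occupancy over the TATA box was 0 in the 4 pooled sets, 0.00648 on S5P chromatin, and 0.914 and 0.468 in the S7P libraries. It was 0 in 5 of the 8 single H3K4me1 libraries and 0.342, 1.37 and 2.80 in the others.

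In 3 libraries the longest low stretch of Fos included or reached the TSS. It ran from -130 to 70 bp in resting DCs, from -140 to 0 bp in resting fibroblasts and from -110 to 40 bp on S5P chromatin. It lay elsewhere after LPS (320 to 500 bp), after TNF (-440 to -220 bp) and on S7P chromatin (-390 to -340 and -390 to -300 bp). A nucleosome stood at -165 to -175 bp in resting and LPS-treated DCs, TNF-treated fibroblasts and all 3 pol-II libraries. A +1 nucleosome was at 135 and 115 bp in DCs and at 65 and 95 bp in resting and TNF-treated fibroblasts. On S5P chromatin it was at 125 bp. The patterning level of Fos was 14.2 and 12.4 in DCs (94.6 and 89.4 percentile) and 17 on S5P chromatin (89.2 percentile), against 4.45 and 7.11 in pooled fibroblasts (55.4 and 67.5 percentile). The single H3K4me1 libraries, all of fibroblasts, ran from -10 to 15 (4.09 to 90.8 percentile), a range that includes the DC levels.

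Fosb, another immediate early Fos protein, had the highest likeness of profile between pooled sets among the members and little NDR by the standard window. Its ratio was -0.42 and -0.24 in resting DCs and fibroblasts, and 0.77 and 0.81 after LPS and TNF. S5P was at 0.78 and S7P at 1.00 and -2.64. The single H3K4me1 libraries ran from -3.46 to 0.33.

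A nucleosome whose centre lay at the upstream edge of the window was found at -155 bp in resting DCs (3.70 times the library mean) and at -145 bp in LPS-treated DCs (6.49), resting fibroblasts (3.16), TNF-treated fibroblasts (6.90), the S5P library (6.56) and the first S7P library (3.51). It was not found in the second S7P library. A further nucleosome stood at -485 bp in resting DCs and at -505 bp in the other 3 pooled sets and on S5P chromatin, at 2.76 to 4.86. The NF-kB letters of the Fosb sequence above lay upstream of its centre, and occupancy there was 3.56, 4.21, 2.03 and 3.58 in the pooled sets and 4.57 on S5P chromatin. The S7P libraries gave 1.91 and 0. Of the 8 single H3K4me1 libraries 3 gave 0 and the other 5 gave 1.18 to 2.62. The Sp1 letters at -46 bp lay in the gap after it, where occupancy was 0 in the 4 pooled sets and all 3 pol-II libraries. With the window at -100 to 50 bp, against the whole 2 kb, the mean ratio of Fosb over the pooled sets was -2.28 rather than 0.23. Over the 8 single H3K4me1 libraries it moved the other way, from -1.65 to -0.45.

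The profile of Fosb was alike between states and between cell types. Pearson's r over the 200 bins was 0.76 between resting and LPS-treated DCs, 0.74 between resting and TNF-treated fibroblasts, 0.76 between the 2 resting cell types and 0.73 between the 2 stimulated ones. These were at the 97.8, 98.2, 99.5 and 99.2 percentile of promoters above the coverage minimum, whose medians were 0.37, 0.31, 0.28 and 0.24. The bins of 1 promoter share fragments and sequence, so r is a description. Between the 2 replicates of each single H3K4me1 group r was lower, 0.24 to 0.58, at the 64.2 to 93.6 percentile. The medians of promoters above the minimum were lower there too, at 0.15 to 0.21. Between the S7P libraries r was 0.14, at the 34.4 percentile, against a median of 0.24. Jun, the member with the lowest coverage, gave r of 0.44 between the DC states but -0.07 between the fibroblast states.

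Fosl1 (Fra-1) and Fosl2 (Fra-2) encode Fos proteins without a strong activation domain. Fosl1 had ratios of -0.10 and 0.31 in DCs and -0.57 and 0.12 in fibroblasts, with S5P at -0.57 and S7P at -0.66 and -0.88. It lay below 0 in 13 of 15 libraries. Its low stretch was after the TSS rather than before it, from 130 to 200 and from 110 to 210 bp in DCs and from 150 to 290 and from 90 to 220 bp in fibroblasts, with a nucleosome upstream at -155 to -185 bp in these sets and on S5P chromatin. In the first S7P library it was before the TSS, from -190 to -70 bp.

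Fosl2 had ratios of -3.79 in resting DCs, -0.83 after LPS, 0.03 in resting fibroblasts and -3.49 after TNF. The single H3K4me1 libraries, from -0.37 to 1.37, showed nothing like the low value of TNF-treated fibroblasts. S5P was at -0.60 and S7P at -0.39 and 0.39. With a coverage of 37.25, each low value came from a window without signal.

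Atf3 and Batf are the partner genes. Atf3, a stress-induced zipper protein that represses many inflammatory genes, had the highest SD of the members over the 15 libraries by this window (1.71), though not with the window at -100 to 50 bp (1.40, against 1.54 for Junb). Its ratio was -3.70 in resting DCs, -0.20 after LPS, -0.57 in resting fibroblasts and -3.43 after TNF. Both TNF-treated control libraries, at -3.68 and -3.17, lay below both resting ones, at 0.09 and 0.23, an order seen at 15.5% of all promoters. In the knockdown the resting libraries were at 1.05 and 0.04 and the TNF-treated ones at -0.47 and 0.74, so these groups overlapped. S5P was at 0.19 and S7P at -1.39 and 0.42. A nucleosome at 205 to 255 bp was found in all 4 pooled sets, on S5P chromatin (225 bp, 4.19) and in the second S7P library.

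Batf, which cooperates with IRF factors in lymphoid and dendritic cells, had ratios of -1.29 and -1.89 in DCs, where the gene was active, and -1.08 and 0.68 in fibroblasts, where it was not. The single fibroblast libraries ran from -3.76 to 1.15. The pol-II libraries were all above 0, at 0.78, 0.35 and 1.56.

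**Figure D3:**
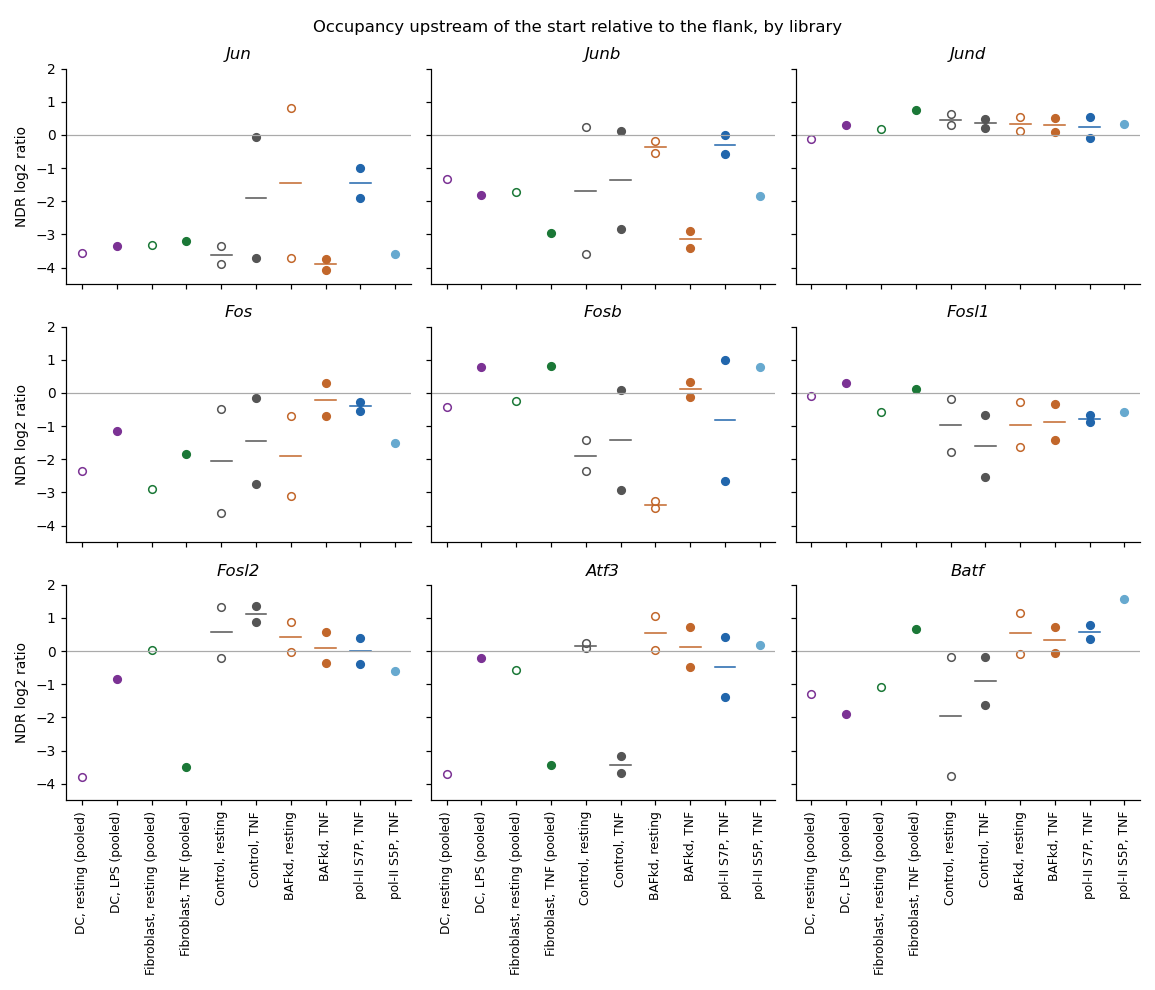
NDR log2 ratio (vertical axis) of the 9 members in the 15 libraries, grouped by state and antibody (horizontal axis), 1 point per library; values far below 0 mark a depleted window. Jun is below -3 in 11 libraries, Jund lies between -0.12 and 0.75 in all 15, and the 2 replicates of a group often lie far apart at the other members.

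The differences between states were then set against the spread between replicates. For the 4 comparisons of pooled sets there is 1 library per state and so no test, and a difference of at least 1 on the log2 scale is called past 1. Between resting DCs and resting fibroblasts 2 of 9 members were past 1 (41.1% of all promoters were), namely Fosl2 (-3.82) and Atf3 (-3.13), both lower in DCs (18.8% were that much lower). After LPS 4 of 9 were past 1 (40.3% of all promoters), all of them higher (17.4%): Fos (1.21), Fosb (1.19), Fosl2 (2.96) and Atf3 (3.51). After TNF 6 of 9 were past 1 (38.1%): Fos (1.04), Fosb (1.05) and Batf (1.76) were higher (16.2%), and Fosl2 (-3.52), Junb (-1.22) and Atf3 (-2.86) were lower (21.9%). Between S5P and H3K4me1 chromatin after TNF 3 of 9 were past 1 (48.5%), all higher on S5P (24.6%): Fosl2 (2.89), Junb (1.12) and Atf3 (3.62).

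Differences of this size were also frequent between replicates of single libraries. Among the 2 replicates of each single-library group, 43.3% to 47.1% of all promoters and 2 to 6 of the 9 members were past 1. The highest count in the pooled comparisons, 6 after TNF, equalled the highest count between replicate libraries. The 2 spreads are not alike, however. Each pooled set merges 2 replicates and had signal in more bins, with library medians of 80.5% to 87% against 64.5% to 79.5% in the replicate libraries. The spread between pooled sets of the same state could not be measured. The pooled comparisons share the resting DC, resting fibroblast and TNF fibroblast sets, so the same low values of Fosl2 and Atf3 enter more than 1 of them. The counts also moved with the window: after LPS the count was 2 with a window of -200 to 0 bp, and after TNF it was 3.

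In the 8 replicated libraries the patterning level was tested with limma (Benjamini-Hochberg adjustment) over the 13559 promoters above the minimum. None passed an adjusted p of 0.05 for TNF, for BAF knockdown or for their interaction, so 0% of promoters and 0 of the 3 members tested (Fosl1, Junb, Jund) were called. At an unadjusted p of 0.05, 774, 793 and 766 promoters passed, and none of the 3 members. Without the minimum, 0 of 25881 promoters and 0 of 9 members were called. The study describes its replicates as independent biological samples, and the p-values measure the spread between them.

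The intervals show how little these tests could resolve. The TNF difference in patterning level, TNF-treated minus resting, was 1.36 for Fosl1 (95% interval -7.45 to 10.2), 1.21 for Junb (-12.1 to 14.5) and -1.88 for Jund (-7.47 to 3.72). The knockdown difference, knockdown minus control, was -1.11 for Fosl1 (-9.93 to 7.70), 1.45 for Junb (-11.9 to 14.8) and -0.70 for Jund (-6.29 to 4.90). Only knockdown libraries had the lower MNase dose, so knockdown and digestion cannot be fully told apart in this term. For comparison, the median level of active fibroblast promoters was 6.43 in the resting pooled set and that of silent ones 0.342, so differences as large as that between active and silent promoters lay inside each of these intervals in at least 1 direction.

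The lowest unadjusted p of a member for the knockdown term was that of Batf, tested without the minimum. Its patterning level was -1.05 and 13.9 in resting controls, 13.7 and 4.83 in TNF-treated controls, -3.89 and -14.9 in resting knockdown cells and -4.20 and -15.6 in TNF-treated knockdown cells. All 4 knockdown libraries lay below all 4 control libraries, as at 1.43% of all promoters. Within the knockdown the first replicates, digested with less MNase according to the deposited names, lay above the second ones. The difference was -17.5 (95% interval -29.4 to -5.61), with an adjusted p of 0.802 by limma over all promoters. For the NDR log2 ratio, tested without the minimum, Atf3 had a TNF difference of -2.00 (adjusted p = 0.864), a knockdown difference of 1.98 (adjusted p = 0.911) and an interaction of 3.17 (95% interval 1.08 to 5.26, adjusted p = 0.543). In that fit limma called 8 of 25881 promoters for TNF, none of them a member, and 0 for the other terms (1376 and 1654 at an unadjusted p of 0.05).

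Chromatin carrying S7P pol-II was compared with H3K4me1 chromatin of TNF-treated control cells in the same way. For the patterning level limma called 0 of 13559 promoters (1062 at an unadjusted p of 0.05) and 0 of the 3 members. The differences, S7P minus control, were 2.17 for Fosl1 (95% interval -9.56 to 13.9), 0.51 for Junb (-16.3 to 17.3) and -0.88 for Jund (-8.99 to 7.22). Antibody, read type (paired-end against single-end) and possibly the cells change together here and cannot be told apart. The study lists the control cells of the knockdown apart from the cells used for S7P.

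How much of each promoter window carried signal did differ between the S7P libraries and the TNF-treated controls. Antibody, read type and cells cannot be told apart for this measure either. The share of the 200 bins with any signal was used as a measure of local recovery, since the 1 kb normalisation removes recovery from the occupancies. It also falls where a promoter has a long empty stretch, so recovery and depletion are mixed in it. At Jun the longest low stretch was 690 bp in pooled TNF-treated fibroblasts, against 90 and 170 bp on S7P chromatin. The part of such stretches in the differences was not tested. The measure was chosen after the values had been seen. It rises with library depth, so each library's median over all promoters was subtracted for the test. Library medians lay at 80.5% to 87% for the pools, 64.5% to 77.5% for single H3K4me1 libraries, 68.5% and 79.5% for S7P and 82% for S5P.

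Jun, Junb and Fosl2 were more completely covered on S7P chromatin. Bins covered at Fosl2 were 94.5% and 100% on S7P chromatin, against 57% and 47% in the TNF-treated controls. Jun had 91.5% and 93.5% against 53% and 57%. Junb had 100% and 100% against 80% and 63%. At each of these 3 genes both S7P libraries lay above all 8 single H3K4me1 libraries, and the S5P library gave 94%, 83.5% and 100%.

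The difference was 40.5 percentage points for Fosl2 (95% interval 24.1 to 56.9, adjusted p = 0.00201), 32.75 for Jun (13.95 to 51.55, adjusted p = 0.014) and 23.75 for Junb (7.03 to 40.47, adjusted p = 0.0369) by limma over all 25881 promoters. These 3 of 9 members were called higher and none lower. The same test called 22.9% of all promoters, 11.2% higher and 11.7% lower. On ranks of bins covered within each library the same 3 members were called (15.3% of all promoters), with Junb at an adjusted p of 0.0482, or 0.0692 with the replicate number as a block. Without the first S7P library or the first TNF-treated control library 1 of 9 members, Fosl2, was called; Jun then had adjusted p of 0.131 and 0.115, and Junb 0.242 and 0.0707. Junb was also lost without the second TNF-treated control library (adjusted p = 0.224).

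The other members did not pass. Fos had 84.5% and 91% on S7P chromatin against 67.5% and 63.5% in the controls (difference 17.5, adjusted p = 0.121). It too lay above all 8 H3K4me1 libraries after its library medians were taken off, which was seen for 4 of 9 members and for 19.9% of all promoters. Fosb went the other way, with 40% and 47% against 63.5% and 51% (difference -18.5, adjusted p = 0.111), and lay below all 8 libraries after the same centring, as 16.6% of promoters did. Batf had 58.5% and 63.5% against 73% and 73.5% (difference -17.0, adjusted p = 0.129). The differences were 5.50 for Fosl1 (95% interval -10.9 to 21.9), 0.50 for Jund (-16.8 to 17.8) and -0.50 for Atf3 (-18.4 to 17.4), so changes of over 10 points in either direction were not resolved at these genes. The share cannot exceed 100%, which limits how far a well-covered promoter can rise. Fosl1 already had 92.5% and 80% in the TNF-treated controls, and Junb stood at the limit in both S7P libraries.

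**Figure D4:**
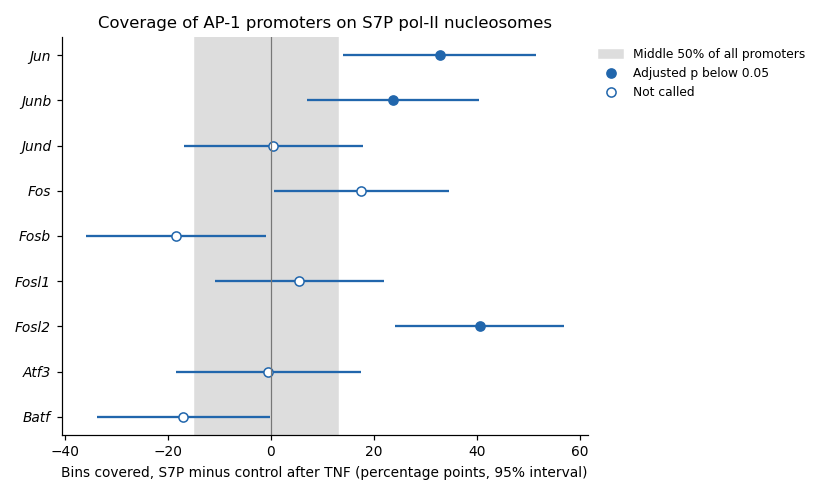
Difference in bins covered, S7P minus TNF-treated control, in percentage points (horizontal axis, with 95% intervals) for the 9 members, after subtraction of library medians; filled points have an adjusted p below 0.05 and the grey band holds the middle 50% of all promoters. Fosl2, Jun and Junb lie to the right of the band, at 40.5, 32.75 and 23.75.

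In the pooled H3K4me1 sets the same measure was low at Jun in both cell types. In DCs 59% and 57% of the Jun bins were covered. In fibroblasts 37% and 32% were, fewer than at any other member. Fosl2 had 64.5% and 44.5% in DCs and 89.5% and 49% in fibroblasts. Fosl1 and Jund had 89% to 99%. For TNF, BAF knockdown and their interaction limma called 0 of 25881 promoters in bins covered (1014, 1111 and 744 at an unadjusted p of 0.05), and so 0 of 9 members.

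**Figure D5:**
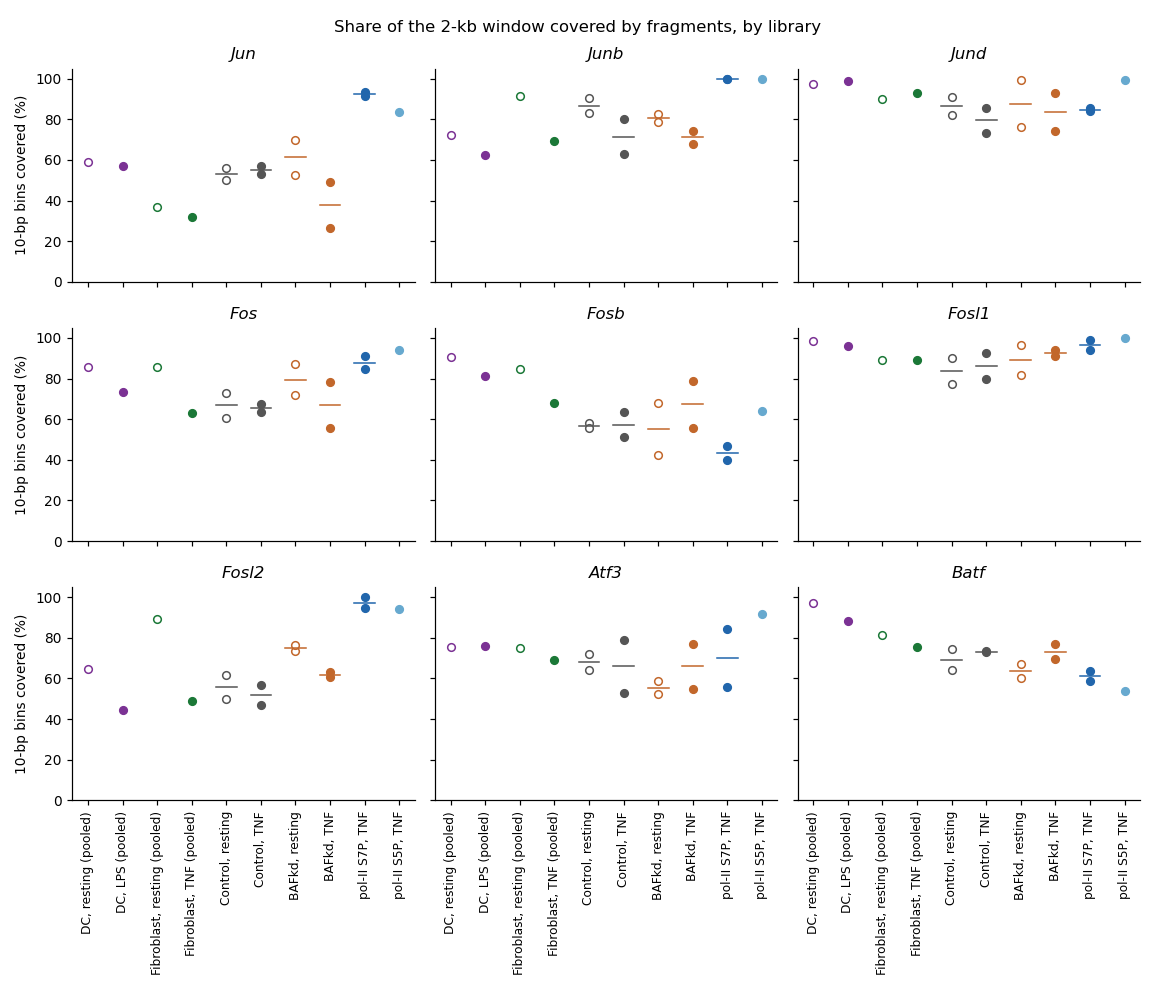
Percent of the 200 bins with any signal (vertical axis) at the 9 members in the 15 libraries, grouped by state and antibody (horizontal axis), 1 point per library. Jun rises from 26.5% to 70% in the H3K4me1 libraries to 83.5% to 93.5% on pol-II chromatin, whereas Fosb lies at 40% and 47% in the S7P libraries.

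Other genes of the pathway were read as lists. Each listed gene, here and in the marker lists below, was read at its promoter of highest coverage. Of 14 further zipper genes (other BATF, ATF, MAF, BACH and NRF2 proteins) 13 had a promoter in the table, and 3 were called higher and 1 lower in bins covered on S7P chromatin, with a median difference of 5.75 points. Of 6 genes for factors that act at AP-1 promoters (SRF, its ELK partners, CREB1 and CREM) 3 were called higher and 0 lower, with a median of 27.2. Of 9 kinase genes upstream of AP-1 (MAP kinases and the kinases that activate them) 3 were called higher and 0 lower, with a median of 15.5. The members had 3 of 9 higher and a median of 5.50. Over all promoters 11.2% were called higher and 11.7% lower, with a median of -2.50. These shares count every promoter of a gene at any coverage, so they are not matched to the lists.

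The deposited expression came from other studies and so does not check these libraries. In it, of 8 dendritic or myeloid marker genes 8 were active in DCs and 1 in fibroblasts, and of 8 fibroblast markers 3 were active in DCs and 8 in fibroblasts. Over promoters above the coverage minimum, the median NDR log2 ratio of the first list (8 of 8 genes) was -1.21 in resting DCs and -0.06 in resting fibroblasts. That of the second (5 of 8) was -0.32 and -0.22, so those fibroblast markers did not set the cell types apart by this ratio. In ranks of bins covered, S7P minus TNF-treated control, the dendritic or myeloid list had a median of -37.8, with 1 of 8 higher. The fibroblast list had 15.5, with 7 of 8 higher, and the members 5.91, with 6 of 9 higher.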

How the data were processed

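Nucleosome occupancies had been deposited by the authors as a normalised signal. Per the study's methods, reads were aligned to mm9 with bowtie and excess duplicates removed. Paired-end fragments were kept at mononucleosome size and single-end reads extended. Counts per 10 bp were divided by those of the surrounding 1 kb and averaged over 50 bp, so a promoter's total recovery is not in the values. The deposited promoter annotation added a coverage score and an expression score, the latter from public RNA-seq on a scale that is not given. Its 2 columns of expression change on stimulation are the authors' own comparisons and were not used. Of the promoters, 24924 (96.3%) had a gene symbol.

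Each library was divided by its mean over promoters with coverage above 100. The patterning level summed occupancy weighted by the mean profile of active promoters. Replicated groups were tested with limma 3.58.1 (R 4.3.3), with Benjamini-Hochberg adjustment over all promoters tested, after trials on simulated data; other steps used Python 3.11.15, numpy 2.4.6 and scipy 1.17.1. All members are named, and no other gene is given values. Low stretches fell below 0.25 of the mean, and peaks were maxima of prominence 1 or more after 70-bp smoothing. These measures and bins covered were chosen after the values were seen. The members and lists were chosen with earlier results of these data known. The depth of each library is unknown, since the files hold no fragment counts. Same-numbered replicates did not deviate together in the patterning level (r from 0.00039 to 0.011).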

Additional observations from a re-analysis of the deposited data

How the results depend on the processing

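The patterning tests of TNF, BAF knockdown, their interaction and S7P called 0 promoters and 0 members under each of 18 planned settings, and 0 members with the replicate block for each term (planned for all but S7P). In bins covered on S7P chromatin the block gave 3 members and its rank form 2, without Junb (42.8 rank points, adjusted p = 0.0692). No other call of a member changed with the block. The labels do not say that a number marks a shared batch; in bins covered the deviations of same-numbered libraries had r of 0.1 to 0.359 over the 6 pairs of groups, all positive. The NDR log2 ratio without a coverage minimum gave 8 calls of TNF and 49 of S7P, no member among them. Leaving out each library gave 1 to 3 members called higher on S7P chromatin (points or ranks), with Fosl2 at 37.8 to 43.2 points, Jun at 26.0 to 39.5 and Junb at 18.2 to 29.2.

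In ranks, or with a library left out, the sign turned for 2 members that passed no test. Jund had -5.82 in ranks with or without the block, -15.4 to 3.79 in ranks over left-out libraries (-15.4 without the first S7P library, -1.04 and -10.6 without the first and second TNF-treated control), and -5.75 to 6.75 in points. Atf3 had 1.29 in ranks with or without the block, -17.1 to 19.7 over left-out libraries (16.2 without the first S7P library, 19.7 without the first TNF-treated control), and -9.25 to 8.25 in points. Among pooled sets, the members past 1 went from 2 to 4 between cell types with a window of -100 to 50 bp, from 4 to 2 after LPS and from 6 to 3 after TNF with a window of -200 to 0 bp or a pseudocount of 0.5, and Fos after TNF went from 1.04 to -3.12 with the window of -100 to 50 bp. In each case the cause was not tested. The low coverage of Jun, Fosl2 and Atf3 limits what an empty window can show, and with 2 libraries per group only large differences could pass.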
